A study of Mus musculus with 24 samples.

Results

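Leukemia inhibitory factor (LIF) signaling was described through 6 genes, Lif, Lifr, Il6st, Stat3, Socs3 and Il11ra1, in mouse uterus. The members were the probe sets whose platform annotation names only one of these genes. There were 11 such probe sets among 12422 tested, namely 5 for Lifr and 2 each for Il6st, Stat3 and Socs3, so that 4 of the 6 genes were covered, of 8251 genes that single-gene probe sets name. No probe set was named for Lif or Il11ra1, so the ligand itself and the interleukin 11 receptor were not analysed here. No probe set named a member together with another gene.

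The mice were progesterone receptor knockout (PRKO) or wild type (WT), and all had been ovariectomized at 6 weeks of age and then left for 2 weeks. Each mouse received progesterone (P4, 1 mg per mouse) or vehicle, which was sesame oil. Uteri were collected 4 h after 1 injection, or 4 h after the last of 4 injections given every 12 h, which is called 40 h. The 8 groups were PRKO with P4, PRKO with vehicle, WT with P4 and WT with vehicle, at 4 h and at 40 h, with 3 Affymetrix arrays each and 24 in all. RNA of 5 mice was pooled for each genotype and treatment, and whether arrays of a group came from separate pools is not stated, so each error and p value describes the spread between arrays, which may be technical. In these ovariectomized mice the ovary's own estrogen and progesterone were absent in every group. The PRKO mice lack the receptor in every tissue, so a difference between genotypes need not arise in the uterus itself.

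LIF binds LIFR, which pairs with gp130, the shared signaling subunit encoded by Il6st. Janus kinases bound to the pair phosphorylate STAT3, which enters the nucleus and switches on target genes, among them Socs3, whose product binds gp130 and shuts the signal off. In the mouse uterus LIF is made by the glands at the time of implantation, acts on the luminal epithelium, and is needed for the embryo to implant. IL11RA1 is the receptor for interleukin 11 and also pairs with gp130.

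The arrays were of even brightness, with medians between 323.5 and 343.4, and no pair of arrays was identical. Of 9 measured markers of uterine identity, Hoxa10, Hoxa11, Msx1, Esr1, Hoxd10 and Hoxd11 lay above their array's median on all 24 arrays, Msx2 on 12, Wnt7a on 8 and Pgr on 0. The deleted gene, Pgr, had signals of 113.9 to 139.1 (median 124.3) on the 12 PRKO arrays and of 106.7 to 169.3 (median 145.8) on the 12 WT arrays. The PRKO minus WT difference was -0.16 and -0.14 on the log2 scale under vehicle (limma adjusted p = 1 at 4 h and at 40 h), -0.04 under P4 at 4 h (adjusted p = 0.969) and -0.34 under P4 at 40 h (adjusted p = 0.0307). The files do not place this dim probe set relative to the deleted stretch, so it does not check the genotype labels. The ratio of 3' to 5' Gapdh signal, a sign of RNA degradation, was 3.25 and 3.67 on replicate 2 of WT P4 and of WT vehicle at 4 h, against 1.23 to 1.86 on the other 22 arrays.

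The RefSeq promoter windows of the 6 genes were read for the STAT motif that phosphorylated STAT3 binds. The windows run from 250 bases before to 50 bases after each annotated start in GRCm38.p6, and 8 windows were listed for the 6 genes. The letters TTCNNNGAA, read on both strands, occurred in 8.33% of 32544 such windows. Among the members only the Socs3 window held them, 154 bases before the start. On the minus strand the annotated span of Socs3 begins before this window, so the window is not at the gene's outermost start. The stretch around the match is shown because Socs3 is the textbook STAT3 target of the pathway. It lies at chr11:117969472-117969560 on the minus strand, with the 9 motif letters in capitals.
Socs3: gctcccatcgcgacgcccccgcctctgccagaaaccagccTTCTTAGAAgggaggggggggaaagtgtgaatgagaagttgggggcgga
The letters ACANNNTGT, the core of the site that progesterone and glucocorticoid receptors share, occurred in 6.83% of all windows and in none of the 8 member windows. A match describes letters and is not a measured binding site.

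For Lifr 2 promoter windows were listed, 10970 bases apart and both on the plus strand. The annotated span of the gene begins before both, so they are not all of its starts. The 250 bases that begin each window are shown, with CG pairs in capitals, because transcripts from these starts begin with different sequence and the files do not say which transcripts each probe set reads. The first window, chr15:7129322-7129571, holds 43 CG pairs and is 82.4% C or G. The second window, chr15:7140292-7140541, holds 3 CG pairs and is 50.8% C or G, against medians of 6.0 CG pairs and 52.4% over all windows.
Lifr first window: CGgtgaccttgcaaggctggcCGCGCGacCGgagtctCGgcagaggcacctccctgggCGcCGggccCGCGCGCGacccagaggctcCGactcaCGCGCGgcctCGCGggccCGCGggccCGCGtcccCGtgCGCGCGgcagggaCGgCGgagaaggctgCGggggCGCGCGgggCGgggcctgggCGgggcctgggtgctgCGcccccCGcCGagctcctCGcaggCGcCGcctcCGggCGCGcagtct
Lifr second window: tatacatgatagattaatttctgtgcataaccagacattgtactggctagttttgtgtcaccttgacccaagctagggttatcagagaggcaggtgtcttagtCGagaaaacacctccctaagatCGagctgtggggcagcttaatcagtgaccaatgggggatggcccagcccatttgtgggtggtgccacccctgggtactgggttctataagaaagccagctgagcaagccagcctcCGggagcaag

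P4 lowered the signal of 1 of the 5 Lifr probe sets, 103697_at, in WT uteri at 4 h, to 0.591 of the vehicle level. In the same arrays Il6st 94345_at was lower and Socs3 92232_at higher on every P4 array than on every vehicle array, without passing the test. The changes of both Stat3 probe sets lay between -0.14 and 0.06 on the log2 scale in the 4 P4 comparisons. None of the 11 member probe sets passed the test for P4 in PRKO uteri or for P4 at 40 h. A probe set counted as changed when limma gave it a Benjamini-Hochberg adjusted p under 0.05, with all 12422 probe sets in the adjustment.

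For Lifr 103697_at at 4 h, the PRKO signals were 403.4, 510.6 and 508.4 with P4, against 491.0, 445.5 and 563.7 with vehicle. The WT signals at 4 h were 287.7, 284.5 and 345.4 with P4, against 705.4, 481.4 and 444.1 with vehicle. In WT uteri all 3 P4 arrays thus lay below all 3 vehicle arrays, and vehicle replicate 1 stood highest of the 24 arrays, while the PRKO groups overlapped. The log2 change with P4 was -0.07 ± 0.16 (SE, adjusted p = 1) in PRKO uteri and -0.76 ± 0.16 (adjusted p = 0.0224) in WT uteri, 3 arrays a group, by limma on log2(signal + 32). The difference between these changes, PRKO minus WT, was 0.68 ± 0.23, with an unadjusted limma p of 0.00661 and an adjusted p of 0.706. The test of the difference therefore did not pass over all probe sets.

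This was 1 of 11 member probe sets called lower in WT uteri at 4 h, where 0.185% of all probe sets were called lower and 0.708% in either direction. The call did not hold without WT P4 replicate 1 (-0.71, adjusted p = 0.143), WT P4 replicate 2 (-0.72, adjusted p = 0.144), WT vehicle replicate 1 (-0.57, adjusted p = 0.177) or WT vehicle replicate 2 (-0.80, adjusted p = 0.0525). It was also lost when only the 12 arrays of 4 h were fitted (adjusted p = 0.0878), and when both arrays of high Gapdh ratio were left out (-0.77, adjusted p = 0.239).

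At 40 h the order of the Lifr 103697_at groups under P4 was alike, but no test passed. The PRKO signals were 290.8, 398.7 and 498.1 with P4, against 366.1, 348.9 and 377.9 with vehicle. The WT signals were 286.6, 231.9 and 269.7 with P4, against 328.7, 453.2 and 374.7 with vehicle. All WT P4 arrays lay below all WT vehicle arrays, while the PRKO P4 arrays spread across the PRKO vehicle range. The change was 0.05 ± 0.16 (adjusted p = 0.935) in PRKO and -0.49 ± 0.16 (adjusted p = 0.163) in WT uteri, and PRKO minus WT was 0.54 ± 0.23 (adjusted p = 0.527). The WT change at 40 h minus that at 4 h was 0.27 ± 0.23 (adjusted p = 1), with a 95% interval from -0.20 to 0.74.

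Over the 8 groups the mean signal of Lifr 103697_at ran from 262.7 ± 28.0 in WT P4 at 40 h (SD, n = 3) and 305.9 ± 34.3 in WT P4 at 4 h upward. Next came PRKO vehicle at 40 h with 364.3 ± 14.6, WT vehicle at 40 h with 385.5 ± 63.0 and PRKO P4 at 40 h with 395.9 ± 104. The highest were PRKO P4 at 4 h with 474.1 ± 61.2, PRKO vehicle at 4 h with 500.1 ± 59.6 and WT vehicle at 4 h with 543.6 ± 141. Only the gaps above each of the 2 lowest groups exceeded the larger SD of the neighbouring pair, so the other neighbours did not differ beyond their spread.

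**Figure D1:**
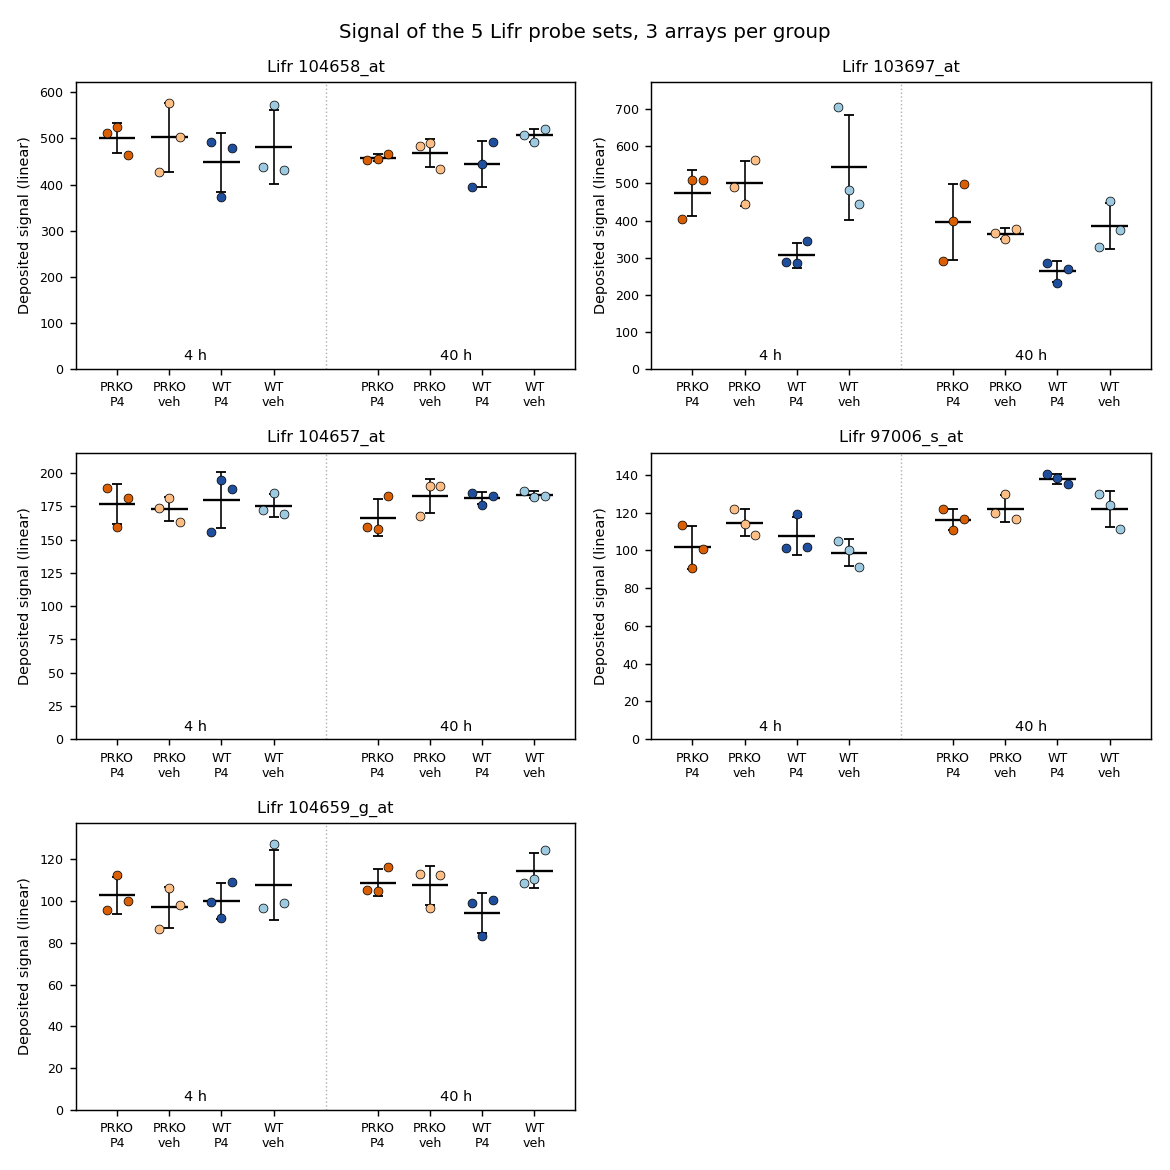
Deposited signal (linear) of each Lifr probe set on the 24 arrays, by genotype, treatment and time, with bars for the mean ± SD of 3 arrays. For 103697_at the 6 WT P4 arrays lie between 231.9 and 345.4, and the WT vehicle arrays between 328.7 and 705.4.

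None of the other 4 Lifr probe sets passed the test for P4. In WT uteri at 4 h their log2 changes with P4 were -0.11 for 104658_at, 0.01 for 104657_at, 0.08 for 97006_s_at and -0.09 for 104659_g_at, with adjusted p of 0.987 to 0.999. The 95% intervals ran from -0.36 to 0.15 for 104658_at and from -0.17 to 0.19 for 104657_at. At 40 h in WT uteri 97006_s_at was higher on all P4 arrays, with 140.4, 138.0 and 135.3 against 129.9, 124.1 and 111.3 with vehicle (log2 change 0.15, adjusted p = 0.478). In the same arrays 104659_g_at was lower on all P4 arrays, with 98.93, 83.05 and 100.4 against 108.9, 110.8 and 124.4 with vehicle (-0.21, adjusted p = 0.362). There 104658_at changed by -0.17 (adjusted p = 0.658), so that it and 104659_g_at had the sign of 103697_at and 97006_s_at the opposite one.

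The annotation gives 104658_at and 104659_g_at the same source sequence, and they varied together, with Pearson r = 0.59 over the 24 arrays and r = 0.67 for deviations from group means. Likewise 104657_at and 97006_s_at had r = 0.45 and, for deviations, r = 0.65. Lifr 103697_at had r of 0.26, -0.10, -0.55 and 0.23 with 104658_at, 104657_at, 97006_s_at and 104659_g_at, each over 24 arrays that share groups and scaling. The signals of 104657_at (155.5 to 195.2), 97006_s_at (90.86 to 140.4) and 104659_g_at (83.05 to 127.3) were below their array's median on all 24 arrays. Those of 104658_at (373.8 to 576.2) were below it on 0 arrays and those of 103697_at on 7. The offset of 32 compresses changes of such dim probe sets, and no detection calls were used, so a level of transcript cannot be told from background in them.

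Cell type markers were read beside Lifr 103697_at. The mean log2 signal of the 15 measured of 16 epithelial markers was 9.02 to 9.23 with P4 and 9.25 to 9.42 with vehicle in WT uteri at 4 h, and 9.13 to 9.21 against 9.35 to 9.42 at 40 h, without overlap at either time. In PRKO uteri it was 9.17 to 9.44 with P4 and 9.26 to 9.505 with vehicle at 4 h, and 9.26 to 9.33 against 9.18 to 9.30 at 40 h. The median log2 change of the 15 markers at 4 h was -0.18 in PRKO uteri, where Lifr 103697_at changed by -0.07, and -0.14 in WT uteri. Of the 15 markers, 1 fell in WT uteri at 4 h and 2 at 40 h, against 0.185% and 0.821% of all probe sets called lower, and 0 were listed at 0 on every array. Tspan8, an epithelial tetraspanin on that list, was the second most alike to Lifr 103697_at across the 24 arrays (r = 0.83), among single-gene probe sets of mean signal above the median and after Tnrc6a (r = 0.85). Such an r is picked as among the highest over many probe sets, and the best matches of the other member probe sets had r of 0.72 to 0.89. Tspan8 signals in WT uteri at 4 h were 236.7 to 267.8 with P4 and 454.8 to 551.9 with vehicle, a log2 change of -0.95 ± 0.17 (adjusted p = 0.0044). Tspan8 was the 1 marker of the list that fell at 4 h, so it does not stand for the rest of the list. With the epithelial score as a covariate, an alternative chosen after seeing the data, the Lifr change in WT uteri at 4 h was -0.76 ± 0.18 (adjusted p = 0.032). The scores of these P4 and vehicle groups did not overlap, so this fit cannot separate epithelial content from P4. In whole uterus, fewer cells of a type and less RNA per cell cannot be told apart. In WT uteri at 40 h the adipose score was 8.99 to 9.60 with P4 against 10.02 to 10.30 with vehicle, and 6 of 10 measured markers fell. In the same arrays the stromal score was 10.73 to 10.85 with P4 against 10.45 to 10.62 with vehicle, with 4 of 12 markers higher, where 1.54% of all probe sets were called in either direction. The smooth muscle score was 12.02 to 12.09 against 11.72 to 11.80, with 0 of 9 markers called. Over the 24 arrays Lifr 103697_at had r of 0.47 with the epithelial, 0.59 with the adipose and -0.58 with the stromal score. The part of the adipose, stromal and smooth muscle scores in the Lifr values was not tested.

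**Figure D2:**
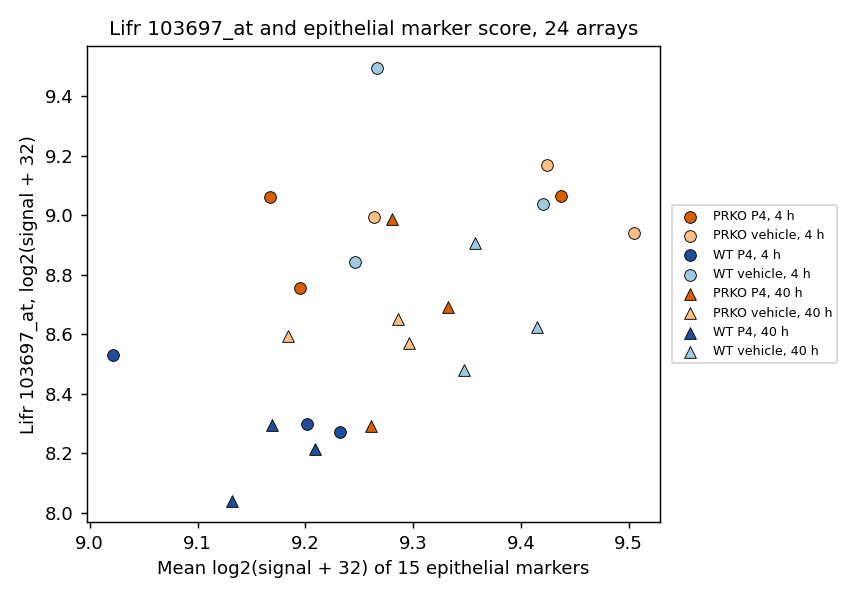
Log2(signal + 32) of Lifr 103697_at against the mean log2(signal + 32) of 15 epithelial markers, 1 point per array, colored by genotype and treatment and shaped by time. The 6 WT P4 arrays lie at epithelial scores of 9.02 to 9.23 and at the lower end of Lifr, and r over the 24 arrays was 0.47.

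Il6st encodes gp130, the subunit that LIF, interleukin 6, interleukin 11 and oncostatin M receptors all use. Il6st 94345_at at 4 h had signals of 1944, 1814 and 2007 with P4 in PRKO uteri, against 2598, 2096 and 2113 with vehicle. In WT uteri at 4 h it had 1837, 1459 and 1806 with P4, against 2569, 1854 and 2322 with vehicle. In both genotypes the P4 arrays were all lower than any vehicle array. The log2 change was -0.23 ± 0.12 (adjusted p = 1) in PRKO and -0.40 ± 0.12 (adjusted p = 0.199) in WT uteri, and the difference, PRKO minus WT, was 0.17 ± 0.17 (adjusted p = 1). In the WT 4 h comparison arrays of the same replicate number deviated together. With the replicate number as a block the Il6st 94345_at change passed the test (-0.40 ± 0.09, adjusted p = 0.0326). Of 19 settings, the alternatives and single arrays left out, it did not pass in the other 18. The WT change ran from -0.49 to -0.39 over the alternatives and from -0.51 to -0.31 without single arrays. With that block 2 of 11 member probe sets were called in WT uteri at 4 h, where 1.03% of all probe sets were called.

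The second Il6st probe set, 98349_at, had 573.5, 373.0 and 657.7 with P4 against 660.9, 468.9 and 687.3 with vehicle in WT uteri at 4 h. Its groups overlapped (-0.20 ± 0.17, adjusted p = 0.983). The value was 0.01 without WT P4 replicate 2, -0.36 without WT P4 replicate 3, -0.34 without WT vehicle replicate 2, -0.12 without WT vehicle replicate 3, and -0.50 (adjusted p = 0.0643) with the epithelial score as a covariate. Replicate 2, the array of high Gapdh ratio, was lowest in each of these WT groups. In PRKO uteri at 4 h replicate 2 was lowest too, with 474.6 with P4 and 490.7 with vehicle, at Gapdh ratios of 1.859 and 1.475. Il6st 94345_at was likewise lowest on replicate 2 in each 4 h group. Across the 24 arrays the r of 98349_at with the Gapdh ratio was -0.73, against -0.34 for 94345_at. The part of the Gapdh ratio in the Il6st values was not tested beyond the alternatives listed. At 40 h neither Il6st probe set passed the test. The change of 94345_at with P4 was -0.05 in PRKO and 0.02 in WT uteri, and the WT change at 40 h minus that at 4 h was 0.42 ± 0.17 (adjusted p = 0.554).

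Stat3, the transcription factor that carries the signal to the nucleus, passed the test in no P4 comparison. Stat3 99099_at had 1097, 1011 and 1072 with P4 against 1109, 998.3 and 995.4 with vehicle in PRKO uteri at 4 h. In WT uteri at 4 h it had 1132, 1000 and 1078 with P4 against 1058, 1049 and 1013 with vehicle. The groups overlapped in both genotypes, with log2 changes of 0.03 and 0.03 and a 95% interval in WT from -0.12 to 0.17. At 40 h the changes were 0.01 in PRKO and -0.07 in WT uteri (adjusted p = 0.759). Stat3 99100_at changed by -0.14 with P4 in WT uteri at 40 h, and its PRKO P4 arrays (979.1, 1059 and 959.3) all lay above its WT P4 arrays (791.6, 807.7 and 907.8), a PRKO minus WT difference of 0.21 ± 0.09 (adjusted p = 0.201). Activity of STAT3 protein, which depends on its phosphorylation, was not measured by these arrays.

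Socs3, the feedback inhibitor, leaned upward with P4 in WT uteri at 4 h. Socs3 92232_at had 571.9, 591.1 and 587.7 with P4 against 639.5, 587.4 and 577.4 with vehicle in PRKO uteri at 4 h. In WT uteri at 4 h it had 639.0, 725.1 and 630.3 with P4 against 515.2, 572.5 and 593.9 with vehicle. The WT P4 arrays lay above all WT vehicle arrays, and the PRKO groups overlapped. The log2 change was -0.04 ± 0.09 in PRKO and 0.22 ± 0.09 in WT uteri (adjusted p = 0.578), and the difference, PRKO minus WT, was -0.26 ± 0.12 (adjusted p = 1). At 40 h the changes were -0.09 in PRKO and 0.10 in WT uteri. The other Socs3 probe set, 162206_f_at, was below its array's median on all 24 arrays (171.6 to 279.4), and its changes of -0.17, -0.04, 0.22 and 0.12 in PRKO at 4 h, WT at 4 h, PRKO at 40 h and WT at 40 h did not pass the test.

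**Figure D3:**
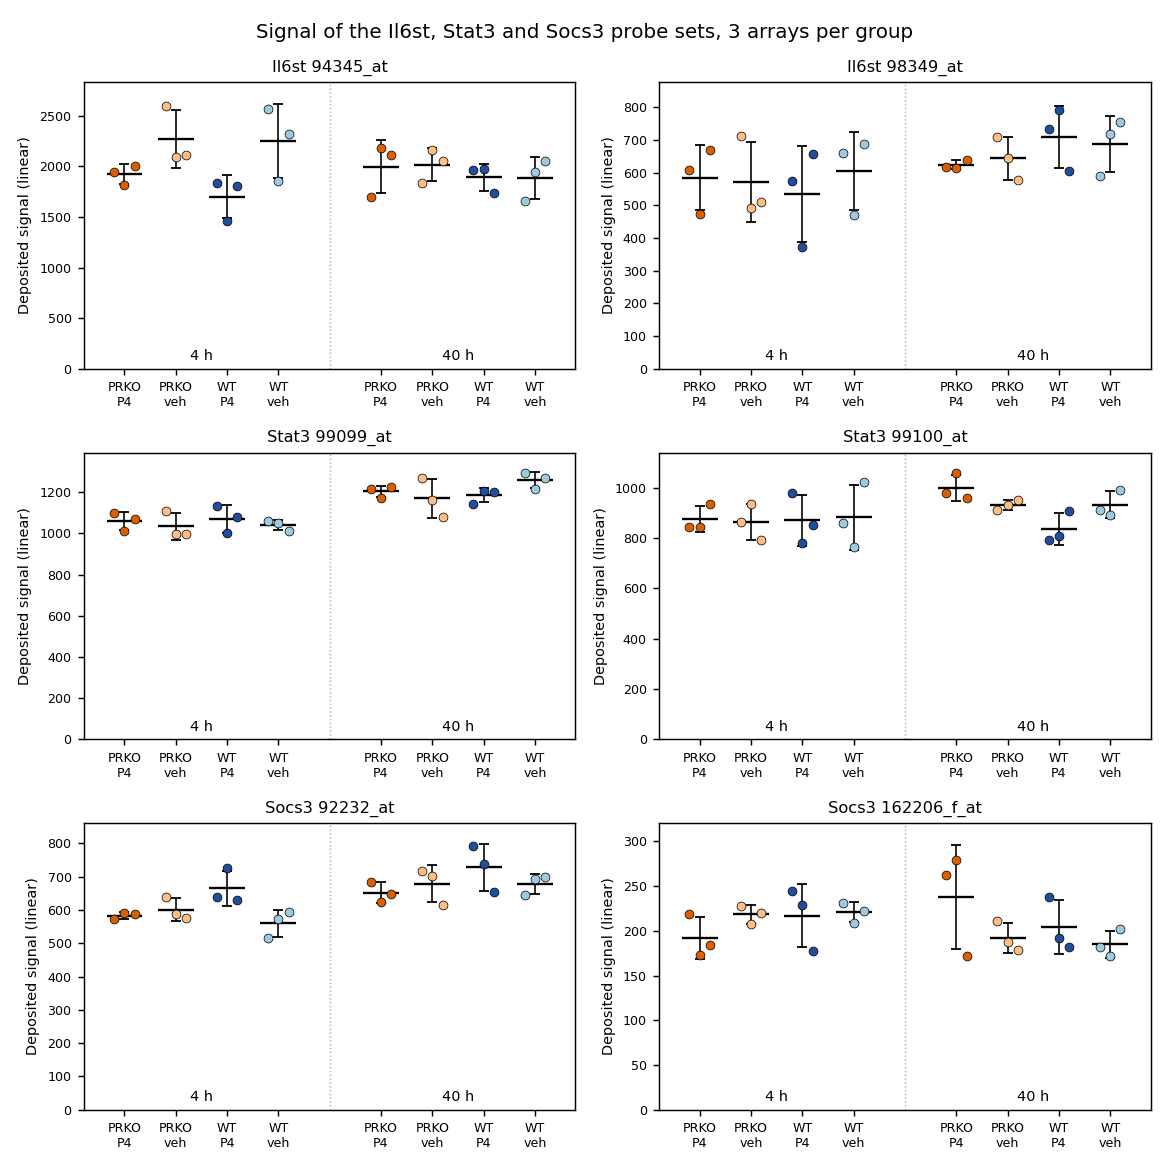
Deposited signal (linear) of the Il6st, Stat3 and Socs3 probe sets on the 24 arrays, by genotype, treatment and time, with bars for the mean ± SD of 3 arrays. Il6st 94345_at at 4 h lies between 1459 and 2007 on the 6 P4 arrays, and between 1854 and 2598 on the 6 vehicle arrays.

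Counted over all members, P4 against vehicle called 0 of 11 probe sets in PRKO uteri at 4 h and 0 of 11 at 40 h, where 0% of all probe sets were called at each time. In WT uteri at 40 h it called 0 of 11, against 1.54% of all probe sets. At an unadjusted p under 0.05, 0 member probe sets passed in PRKO at 4 h and 0 at 40 h, against 1.9% and 6.69% of all probe sets, and 3 passed in WT at 4 h and 2 at 40 h, against 6.23% and 11.7%. The 3 in WT at 4 h were Lifr 103697_at, Il6st 94345_at and Socs3 92232_at, and their groups were also the only 3 of 11 without overlap, against 7.66% of all probe sets. At 40 h the WT groups did not overlap for 4 of 11, against 20.2% of all probe sets. The PRKO groups did not overlap for 1 of 11 at 4 h and 1 of 11 at 40 h, against 4.31% and 20.1%. Overlap was read on the deposited signals. On the scaled values the counts were 3 and 4 in WT at 4 h and 40 h, against 6.67% and 19.8% of all probe sets, and 1 and 0 in PRKO, against 4.31% and 22.3%. The median log2 change of the 11 was -0.04 in WT at 4 h and -0.01 in WT at 40 h, against 0.00 over all probe sets at both times. The PRKO minus WT difference of the P4 change called 0 of 11 at 4 h and 0 at 40 h, against 0.0966% and 0.105% of all probe sets. At an unadjusted p under 0.05 it counted 2 of 11 at 4 h and 1 at 40 h, against 3.49% and 9.1%.

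**Figure D4:**
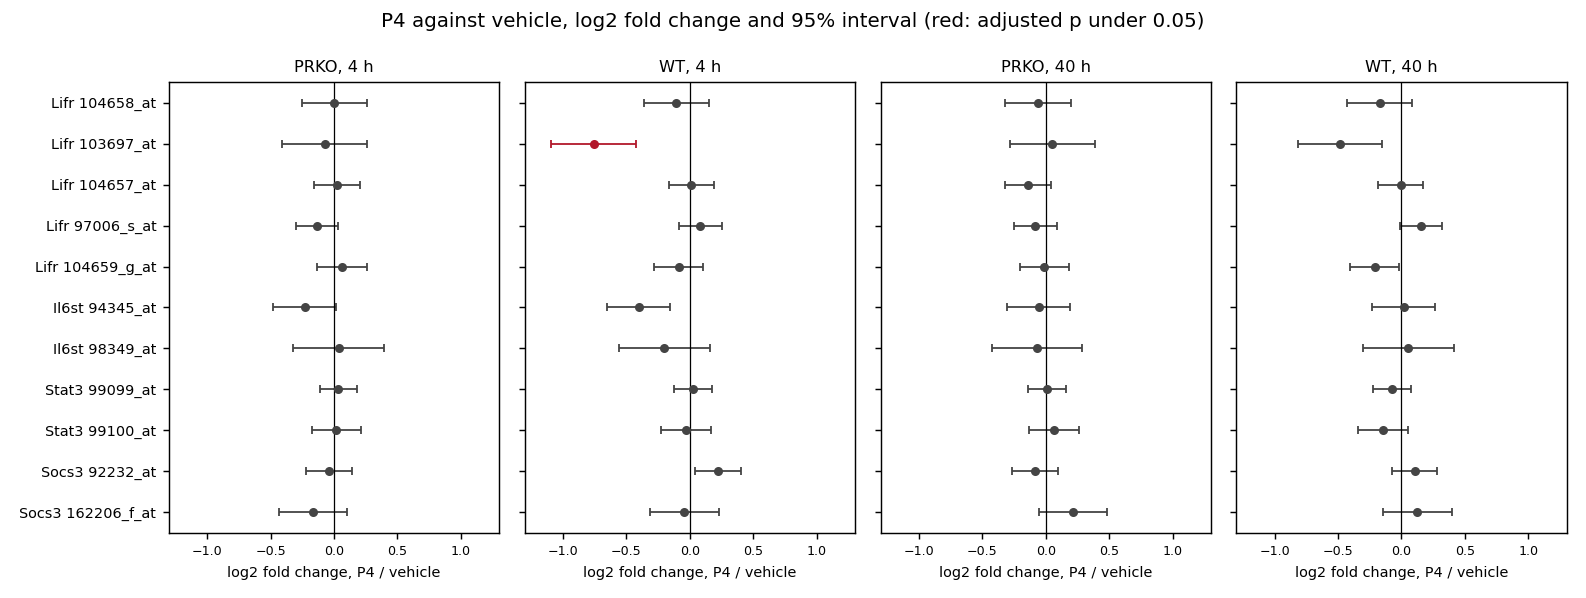
Log2 fold change, P4 over vehicle, of the 11 member probe sets with 95% intervals, in panels of genotype and time. Lifr 103697_at in WT at 4 h (-0.76) is the one value past the adjusted threshold, and in PRKO at 4 h it lies at -0.07.

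Set against WT uteri, PRKO uteri under P4 had higher mean Lifr 103697_at signals at each time, short of the test. The 3 PRKO arrays lay above the 3 WT arrays at 4 h, and at 40 h they did so in the deposited signals (lowest PRKO 290.8, highest WT 286.6) but overlapped once scaled. The PRKO minus WT difference under P4 was 0.59 ± 0.16 at 4 h (adjusted p = 0.0854) and 0.47 ± 0.16 at 40 h (adjusted p = 0.106). At 40 h the value was 0.65 (adjusted p = 0.0473) without PRKO P4 replicate 1 and 0.31 (adjusted p = 0.291) without PRKO P4 replicate 3. Under vehicle the PRKO minus WT difference was -0.09 at 4 h and -0.06 at 40 h, with overlapping arrays and 95% intervals from -0.43 to 0.24 and from -0.40 to 0.27. Lifr 97006_s_at ran the other way under P4 at 40 h, with 121.6, 110.5 and 116.4 in PRKO against 140.4, 138.0 and 135.3 in WT uteri (-0.23 ± 0.08, adjusted p = 0.112). Its PRKO arrays all lay below its WT arrays. Socs3 92232_at under P4 was lower in PRKO uteri by 0.16 at 4 h, without overlap, and by 0.19 at 40 h, with overlap, short of the test at adjusted p = 0.73 and 0.201. The other Socs3 probe set, 162206_f_at, differed by -0.13 at 4 h (adjusted p = 0.923) and by 0.14 at 40 h (adjusted p = 0.548), with overlap at each time.

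None of the 11 member probe sets was called between genotypes. Under P4 the share of all probe sets called was 1.22% at 4 h and 2.59% at 40 h, and under vehicle it was 0.185% and 0.0644%. At an unadjusted p under 0.05, the PRKO against WT count was 1 of 11 under P4 at 4 h and 4 of 11 at 40 h, against 7.81% and 22.2% of all probe sets, and 0 under vehicle at each time, against 5.02% and 3.08%. Groups did not overlap for 2 of 11 under P4 at 4 h and 4 of 11 at 40 h, against 10.5% and 32% of all probe sets, and for 1 under vehicle at each time, against 6.52% and 10.7%. On the scaled values these counts were 3 and 4 under P4, against 10.3% and 35.2%, and 1 and 0 under vehicle, against 6.05% and 10.3%. The P4 and genotype comparisons share arrays and are not independent.

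**Figure D5:**
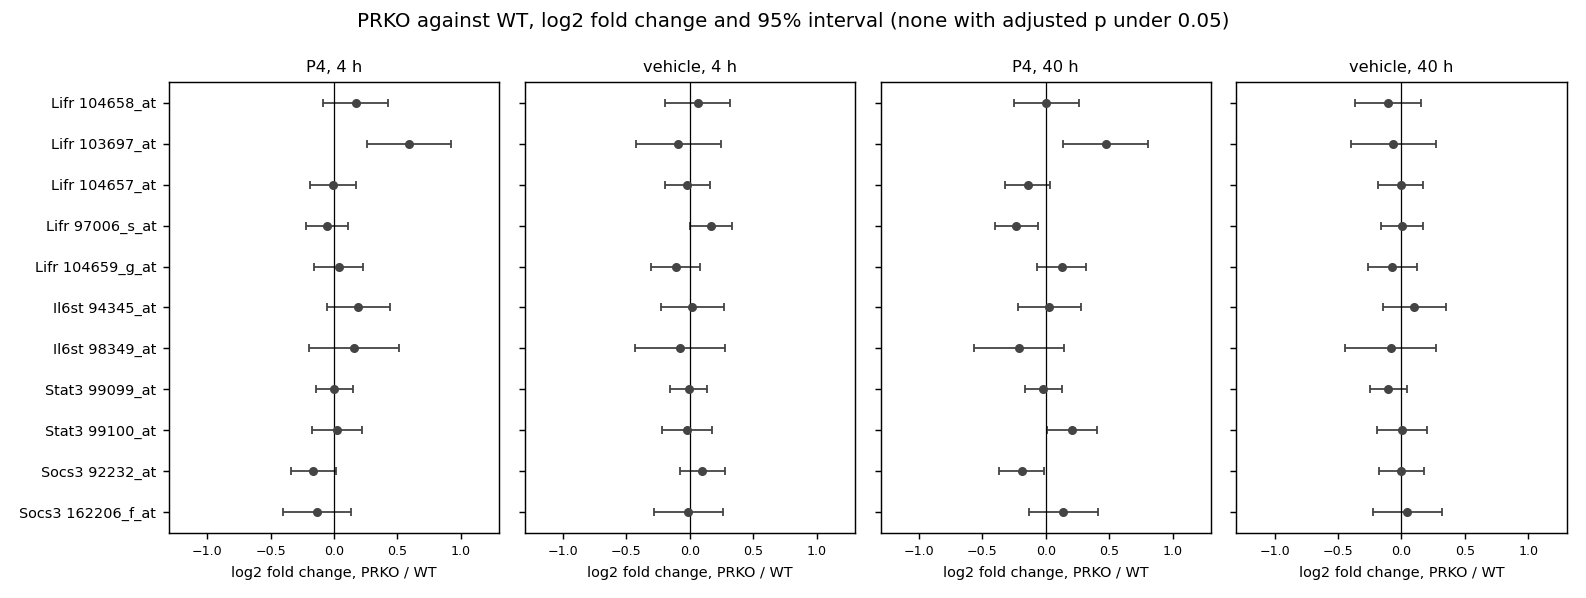
Log2 fold change, PRKO over WT, of the 11 member probe sets with 95% intervals, in panels of treatment and time. Lifr 103697_at lies at 0.59 and 0.47 under P4 at 4 h and 40 h, against -0.09 and -0.06 under vehicle, and no value passed the adjusted threshold.

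Between the vehicle groups of 4 h and 40 h some members shifted without passing the test. These groups differ in the number of oil injections and in the time since the first injection. The design cannot tell these apart, nor separate them from any difference in array handling between the times. Stat3 99099_at in WT uteri had 1291, 1218 and 1268 at 40 h, all above 1058, 1049 and 1013 at 4 h (0.26 ± 0.07, adjusted p = 0.0891), and in PRKO uteri its change was 0.16 (adjusted p = 0.4). Lifr 103697_at was lower at 40 h by 0.43 in PRKO (adjusted p = 0.343) and by 0.46 in WT uteri (adjusted p = 0.184), where the value without WT vehicle replicate 1 of 4 h was -0.27. Socs3 92232_at in WT uteri was higher on all 40 h arrays (0.25 ± 0.09, adjusted p = 0.166). Socs3 162206_f_at went the other way, lower on all 40 h arrays (-0.23 ± 0.13, adjusted p = 0.42). Lifr 97006_s_at in WT uteri was higher on all 40 h arrays (0.22 ± 0.08, adjusted p = 0.19), opposite to 103697_at. In WT uteri the arrays of 103697_at, of the remaining Lifr probe sets and of Stat3 99100_at (0.07, adjusted p = 0.752) overlapped. Differences between probe sets of a gene were not tested for this change. The count called was 0 of 11 in PRKO and 0 of 11 in WT vehicle, against 0% and 0.29% of all probe sets. At an unadjusted p under 0.05 it was 2 of 11 in PRKO and 5 of 11 in WT, against 11.1% and 15.3%. The arrays of the 2 times did not overlap for 1 of 11 in PRKO and 4 of 11 in WT vehicle, against 19.6% and 17.9%, and on the scaled values for 2 and 4, against 18.6% and 16.3%. For the 40 h minus 4 h difference of the WT P4 change 0 of 11 were called, against 0.475% of all probe sets, with 1 of 11 against 6.39% at an unadjusted p under 0.05.

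The wider pathway was read from 5 lists, with the brightest single-gene probe set standing for each gene. Of 14 other gp130 cytokines and receptors 8 were measured, and 1 passed the test in any comparison, namely PRKO against WT under P4 at 40 h, where 2.59% of all probe sets were called. Osmr, the oncostatin M receptor that pairs with gp130, had a signal of 262.8 ± 19.3 in PRKO P4 uteri at 40 h and 184.2 ± 12.0 in WT P4 uteri (0.41 ± 0.11, adjusted p = 0.0498). The log2 change of Osmr with P4 was -0.09 and -0.05 in PRKO uteri at 4 h and 40 h, and -0.33 and -0.37 in WT uteri. Il11, which also acts in the uterus at implantation, changed by 0.05 at 4 h and 0.13 at 40 h in WT uteri, and Il6 by 0.09 and 0.07, none past the test. The median of the 8 in WT uteri was -0.02 at 4 h and -0.04 at 40 h, against 0.00 over all probe sets.

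Of 22 JAK-STAT kinases, factors and inhibitors 18 were measured and 0 passed in any of the 13 comparisons. The lowest WT value at 4 h was Jak2, one of the kinases that gp130 carries, at -0.48, and the highest was Socs2, another feedback inhibitor, at 0.30. The 9 measured of 14 adaptors that link gp130 to the Ras-MAPK and PI3K routes also had 0 calls, and Gab1, a docking protein among them, changed by -0.32 in WT uteri at 4 h. The medians in WT uteri at 4 h were 0.01 for the JAK-STAT list and -0.05 for the adaptors.

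All 22 listed STAT3 target genes were measured, and 0 passed for P4 in PRKO uteri at each time. For P4 in WT uteri 0 of 22 passed at 4 h and 1 of 22 fell at 40 h, against 0.708% and 1.54% of all probe sets called. That gene was Cebpb, a transcription factor needed for decidualization, with 397.4 ± 19.8 with P4 and 776.8 ± 61.7 with vehicle (-0.90 ± 0.21, adjusted p = 0.0293). Between genotypes under P4 1 of 22 passed at each time, against 1.22% and 2.59% of all probe sets. Bcl2l1, which encodes the survival protein Bcl-xL, was lower in PRKO at 4 h (-0.31 ± 0.07, adjusted p = 0.0367), though its other probe set stood at -0.01. Ccnd1, the G1 cyclin D1, was higher in PRKO at 40 h, with 1174 ± 91.4 in PRKO and 677.8 ± 202 in WT uteri (0.76 ± 0.19, adjusted p = 0.0392), and its other probe set likewise stood at -0.01. The list's median change with P4 in WT uteri was 0.07 at 4 h and -0.10 at 40 h. These genes respond to many factors besides STAT3.

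Of 16 genes linked to LIF at implantation 15 were measured. For P4 in WT uteri 1 of 15 passed at each time, against 0.708% and 1.54% of all probe sets, and between genotypes under P4 1 passed at 4 h and 3 at 40 h, against 1.22% and 2.59%. Ihh, a hedgehog ligand that the uterine epithelium makes under progesterone, rose with P4 in WT uteri at 4 h, with 1316 ± 90.5 with P4 and 904.7 ± 151 with vehicle (0.52 ± 0.11, adjusted p = 0.0224). Under P4 Ihh was lower in PRKO than in WT uteri, by 0.66 at 4 h (adjusted p = 0.00154) and by 0.58 at 40 h (adjusted p = 0.00643). The difference of its P4 change between genotypes was -0.60 at 4 h and did not pass at either time. In WT uteri at 40 h the Ihh change with P4, 0.26, did not pass. Acod1, also called Irg1, an epithelial enzyme that makes itaconate, rose with P4 in WT uteri at 40 h, with 950.7 ± 122 with P4 and 333.3 ± 47.3 with vehicle (1.44 ± 0.15, adjusted p = 8.05e-06). Under P4 at 40 h Acod1 had 231.9 ± 14.3 in PRKO uteri, and its P4 change differed between genotypes by -1.56 ± 0.21 (adjusted p = 0.000748). The second Acod1 probe set changed by 0.50 with P4 in WT uteri at 40 h (adjusted p = 0.00384), and its difference between genotypes, -0.55, did not pass (adjusted p = 0.11). Hbegf, a ligand of the epidermal growth factor receptor, was lower in PRKO than in WT uteri under P4 at 40 h (-0.46 ± 0.11, adjusted p = 0.0312). The remaining 12 measured genes of the list did not pass in any comparison. Ihh and Acod1 are known progesterone-responsive genes, and the lists were chosen with earlier results of these data known, so these calls are no independent evidence about LIF signaling.

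For the other members the most alike single-gene probe sets of mean signal above the median, over the 24 arrays, were Pkp4 (r = 0.82) and Snx6 (r = 0.79) for Il6st 94345_at, Ppp6c (r = 0.85) and Shkbp1 (r = 0.82) for Stat3 99099_at, and Rps4x (r = 0.89) and Rps4l (r = 0.83) for Socs3 92232_at. Between genes, Lifr 103697_at had r = 0.61 with Il6st 94345_at and r = -0.75 with Socs3 92232_at over the 24 arrays. For deviations from group means those r were 0.41 and -0.35, so part of each lay between groups. These correlations describe arrays that share groups and scaling, and whether they share RNA pools is not stated.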

How the data were processed

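Each array had 1 deposited linear intensity, its signal, for every probe set. MAS5 made these values, per the submitters' processing notes. Its version, settings and scaling were not given in the sources used here. Of 12488 probe sets 66 controls were left out, and 35 of 299712 values were 0. The platform annotation names a single gene for 10833 tested probe sets, several for 396 and none for 1193, and 10817 of the 10833 matched the RefSeq table. Each array was scaled to a 2%-trimmed mean of 500 (factors 0.954 to 1.03), and log2(signal + 32) was fitted with limma 3.58.1 in R 4.3.3, 1 mean per group over all 24 arrays, with 16 residual and 4.98 prior degrees of freedom. Tests were two-sided, over 13 comparisons, and the median SE of a log2 change was 0.102. The number of arrays limits precision. All member probe sets were named, with up to 4 called genes per pathway list and the 2 probe sets most alike to each main member. The members and lists were chosen with earlier results of these data known. Deviations of same-numbered arrays correlated at 0.114 to 0.516 in the WT 4 h comparison, over 0.1 in all 3 pairs, and in no other comparison of 3 arrays with 3, so the block is given beside that result. The procedure was tested on simulated data. The simulated arrays were independent, so effects of shared RNA pools or of replicate number were not checked.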

Additional observations from a re-analysis of the deposited data

How the results depend on the processing

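The 143 member values (11 probe sets in 13 comparisons) were recomputed under 13 alternatives (1 of them chosen after seeing the data; 12 for the 3 comparisons across times, which the arrays of 1 time cannot give) and without each array of the groups compared, 2882 values in all. None of the called values changed sign, and 127 of the 143 values passed the test under no setting. The count of member probe sets called for P4 in WT uteri at 4 h was 1, against 0 with the arrays of the compared groups alone (Lifr 103697_at adjusted p = 0.351), 0 with the arrays of 4 h alone, 0 without both arrays of high Gapdh ratio, 2 with the replicate block, and 0 to 1 without single arrays (0 without WT P4 replicate 1 or 2 or WT vehicle replicate 1 or 2). Over all probe sets that comparison had 10, 29, 29 and 128 calls under these alternatives, in that order, and 41 to 138 without single arrays. Over the alternatives the change of Lifr 103697_at in that comparison ran from -0.83 to -0.71. Without single arrays the Lifr change ran from -0.90 to -0.57, and over all these settings its adjusted p ran from 0.00952 to 0.351. With array weights the counts were 1 for P4 in WT at 40 h and 3 for P4 in PRKO at 40 h. They were 2 for the genotype difference of the P4 change at 40 h. For PRKO against WT under P4 they were 1 at 4 h and 6 at 40 h. All of these were 0 in the main fit. Of all 12422 probe sets, array weights called 519, 3706, 1496, 325 and 4248 in these comparisons, in that order. PRKO against WT under P4 at 40 h also had 1 with the arrays of 40 h alone and 0 to 1 without single arrays (1 without PRKO P4 replicate 1). Over all probe sets the arrays of 40 h alone gave 1147 calls there, and fits without single arrays gave 90 to 292. The 40 h against 4 h comparison of WT vehicle had 1 with the epithelial score as a covariate (Stat3 99099_at, 0.27, adjusted p = 0.0397). That fit called 370 of all probe sets in the same comparison. The cause of these shifts was not tested.

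Calls over all probe sets depended on the setting as well. For P4 in WT uteri they were 88 at 4 h (10 to 254 under alternatives, 41 to 138 without single arrays) and 191 at 40 h (183 to 665, 90 to 189). For P4 in PRKO uteri they were 0 at 4 h (0, and 0 to 2 without single arrays) and 0 at 40 h (0 to 3706, the highest with array weights). The genotype difference of the P4 change gave 12 (1 to 29, 4 to 42) at 4 h and 13 (11 to 1496, 5 to 32) at 40 h. PRKO against WT gave 23 (1 to 34, 3 to 24) and 8 (2 to 38, 1 to 9) under vehicle, and 152 (65 to 392, 84 to 164) and 322 (310 to 4248, 90 to 292) under P4. The time difference of the WT P4 change gave 59 (26 to 112, 32 to 91), and 40 h against 4 h gave 36 (0 to 370, 0 to 110) in WT and 0 (0 to 72, 0 to 3) in PRKO vehicle. Beside the WT 4 h comparison, the replicate block changed no member call, and for P4 in WT uteri at 40 h it gave 386 calls over all probe sets. Another scaling moved the median change of all probe sets by at most 0.0372. With 3 arrays a group, dim Lifr probe sets and unknown detection, small changes could not be resolved.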
